A study of Homo sapiens with 6 samples.

Results

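The cytochrome P450 (CYP) and UDP-glucuronosyltransferase (UGT) genes of MHCC97H cells were described. Members were all genes of the deposited table whose symbol is CYP followed by a family number, a subfamily letter and a gene number, or UGT of families 1 to 3 with subfamily A or B, leaving out the sterol demethylase CYP51A1. The rule gave 76 members of 58825 genes, 55 of them P450s and 21 UGTs. MHCC97H is an established line of human hepatocellular carcinoma, and the study sequenced mRNA, selected on oligo(dT) beads, to find splicing events that depend on PTBP1, an RNA-binding splicing regulator. Of 6 libraries, 3 are labelled shControl with the genotype WT, and 3 are labelled shPTBP1, a short hairpin RNA, with the genotype PTBP1 Knockdown. The labels give no hairpin sequence, time point or culture, so p-values measure the spread between these libraries, which may be technical.

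P450 enzymes carry a heme whose iron is held by a cysteine, and they use electrons from NADPH, passed on by P450 oxidoreductase (POR) in the endoplasmic reticulum or by adrenodoxin (FDX1) in mitochondria, to insert oxygen into a substrate. UGTs sit in the same membrane and transfer glucuronic acid from UDP-glucuronate to drugs, bilirubin, bile acids and steroids, which makes them soluble for excretion. In the healthy liver the hepatocyte is the main site of these reactions: CYP3A4 and related P450s break down many drugs, CYP7A1 starts bile acid synthesis, and UGT1A1 conjugates bilirubin. Other P450s make or clear signals such as retinoic acid, vitamin D, steroids and eicosanoids, and many of those are used outside the liver as well.

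Few members were expressed in these libraries. A mean over all 6 libraries of at least 1 FPKM (fragments per kilobase of transcript per 1000000 fragments) was reached by 7 of 76 members, which is 9.21%, against 51.2% of 19916 protein-coding genes. These were CYP2S1, CYP1B1, CYP39A1, CYP2U1, CYP27C1, CYP20A1 and CYP26B1. At the other end, 35 members (46.1%, against 17.5% of protein-coding genes) had a count of 0 in all 6 libraries, 18 of them P450s and 17 UGTs. No UGT exceeded 0.08 FPKM in any library. The member with the highest mean, CYP2S1, stood at 2.29 FPKM, a level exceeded by 42.4% of protein-coding genes, and the median of the protein-coding genes at 1 FPKM or more was 6.55. All members together took between 0.00514% and 0.00625% of the summed FPKM of a library. No test was made of these shares.

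The heme-binding stretch is shown for members that reached 1 FPKM in a library, because it holds the cysteine that binds the heme iron. Each stretch was found by the signature described below, so the likeness between the lines was set by the search. CYP39A1 and CYP20A1 also reached 1 FPKM in a library, but they had no match and are not shown. The coding sequences were read from GENCODE release 29 on hg38 and are credited to it. Each line gives 30 coding bases of the transcript, 5′ to 3′, and the capitals mark the codon of the heme-binding cysteine.
CYP2S1: ttctccttagggaagcgtgtcTGCcttgga
CYP1B1: ttttcagtgggcaaaaggcggTGCattggc
CYP2U1: tttgggatagggaagcgggtgTGTatggga
CYP27C1: tttggtcatggggttcgcagcTGCataggg
CYP26B1: ttcggtggcggtgtccggaccTGCctgggc
CYP11A1: tttggctggggtgtgcggcagTGTctggga
CYP1A1: tttggcatgggcaagcggaagTGTatcggt
The cysteine is codon 440 of 504 in CYP2S1, 470 of 543 in CYP1B1, 490 of 544 in CYP2U1, 318 of 372 in CYP27C1, 441 of 512 in CYP26B1, 462 of 521 in CYP11A1 and 457 of 512 in CYP1A1, so it lies near the end of the protein in each. The stretch is read from the plus strand at chr19:41206090-41206299 in CYP2S1 and at chr4:107949508-107950264 in CYP2U1, where an intron interrupts it. It is read from the minus strand within a single exon at chr2:38070938-38070967 in CYP1B1, chr2:127193136-127193165 in CYP27C1, chr2:72132437-72132466 in CYP26B1, chr15:74338613-74338642 in CYP11A1 and chr15:74720651-74720680 in CYP1A1. The PROSITE signature of the P450 cysteine heme-iron ligand, searched in the reading frame of the coding strand, was found in 51 of 55 P450 transcripts. Over the longest coding sequence of each of 19922 protein-coding genes it was found in 61, or 0.306%, of which 11 were not members. CYP39A1, CYP20A1, CYP8B1 and CYP7B1 had no match, which says only that this pattern is not written in their coding sequence.

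PTBP1 itself, the gene the hairpin targets, had 21.2, 16.4 and 27.4 FPKM in shControl 1, 2 and 3 and 17.3, 16.9 and 18.0 FPKM in shPTBP1 1, 2 and 3, and its groups overlapped (log2 fold change -0.29 with a standard error of 0.18, edgeR adjusted p = 0.953). A direction given below is therefore one between libraries as labelled. The paper reports checking the knockdown in MHCC97H cells by western blot and quantitative PCR, assays separate from this sequencing. Counts summed to between 68704509 and 85317970 per library, and 32.5% to 34.4% of the counts from 1 to 40 were multiples of 4, so they were treated as estimates. A count of 3, the limit that a count of 0 allows, corresponds to 0.0352 to 0.0437 CPM (counts per 1000000 counts), covering counting error only. The hepatocyte markers ALB, AFP, TTR, APOB, APOH and FGB had a count of 0 in every library, and APOA1, TF, HNF4A and GPC3 lay at or below 0.10 FPKM. The epithelial keratins KRT8 (37.7 to 53.2 FPKM) and KRT18 (89.7 to 110 FPKM) were high. KRT8 was higher in shPTBP1, at a log2 fold change of 0.32 (SE 0.10, edgeR adjusted p = 0.726). Of the secreted hepatocyte proteins listed, SERPINA1, which monocytes and neutrophils also make, was the most counted, with 90, 54 and 3 counts in shControl and 77, 68 and 0 counts in shPTBP1. HBB, a hemoglobin chain of red cells, had 519, 329, 345 and 306 FPKM in the libraries numbered 1 and 2 of both groups and 0.36 FPKM in shControl 3 and in shPTBP1 3. The neutrophil and monocyte genes S100A9 (8.45 to 15.9 against 0.07 to 0.08 FPKM) and LYZ (2.43 to 4.35 against 0 FPKM) followed the same split, as did SERPINA1. The part of these blood transcripts in the members' values was not tested. In bulk RNA, fewer cells that express a gene and less RNA per cell cannot be told apart.

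**Figure D1:**
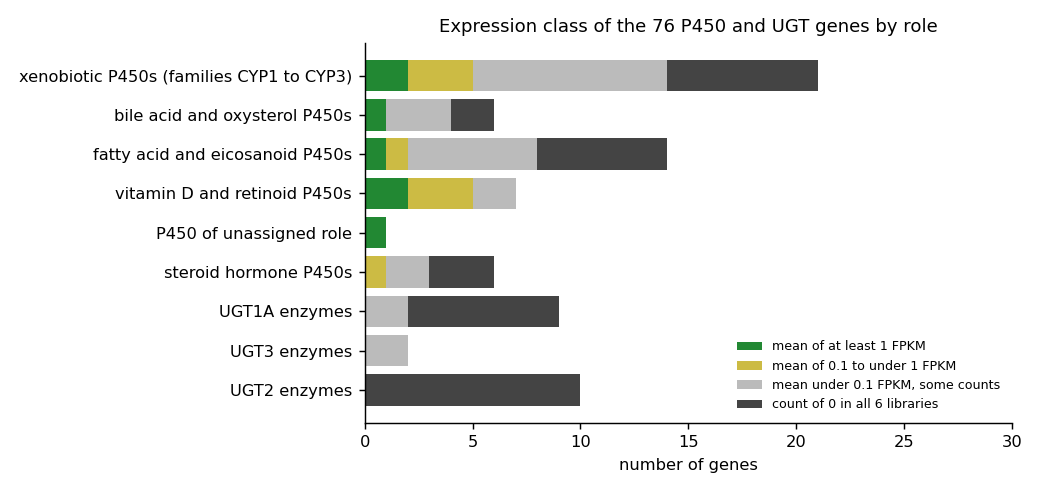
Horizontal bars give the number of members in each role, split by expression class: a mean of at least 1 FPKM over 6 libraries, 0.1 to under 1 FPKM, under 0.1 FPKM with some counts, or a count of 0 in all 6 libraries. The UGT2 genes are all at 0. No gene is at 0 among the vitamin D and retinoid P450s, the UGT3 genes and the P450 of unassigned role.

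Of the 21 P450s of families CYP1 to CYP3 that act on drugs and other foreign compounds, 2 had a mean of at least 1 FPKM, and neither is a main drug-metabolizing P450 of the liver. CYP2S1, an epithelial P450 induced through the aryl hydrocarbon receptor, had 1.86, 1.67 and 1.52 FPKM in shControl 1, 2 and 3 and 2.74, 2.71 and 3.22 FPKM in shPTBP1 1, 2 and 3. Every library labelled shPTBP1 lay above every shControl library. CYP1B1, which oxidizes estradiol and polycyclic aromatic hydrocarbons mostly outside the liver, had 2.33, 1.78 and 2.77 FPKM in shControl and 1.81, 1.80 and 2.19 FPKM in shPTBP1. The ranges of CYP1B1 overlapped, and its highest value was in shControl 3. CYP1A1, the classical target of the aryl hydrocarbon receptor, was the member next but one below the threshold, with 0.93, 0.53 and 1.34 FPKM in shControl and 0.30, 0.65 and 1.09 FPKM in shPTBP1. Its libraries numbered 3 were the highest of each group, and its groups overlapped.

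Measured in FPKM, the liver drug-metabolizing P450s were at trace level or absent. CYP3A5, which is widely expressed in liver and gut, had 0.28, 0.26, 0.02, 0.14, 0.17 and 0.15 FPKM over shControl 1 to 3 and shPTBP1 1 to 3, and CYP2D6, which handles many antidepressants and opioids, 0.15, 0.15, 0.12, 0.12, 0.14 and 0.17 FPKM. CYP3A5 stood apart in shControl 3 (20 counts there, 129 to 261 in the other libraries), and CYP2D6 was even over all 6 libraries. CYP3A7, the fetal form, had 0.12, 0.14, 0.01, 0.07, 0.06 and 0 FPKM in the same order. CYP3A7 was thus lowest in the libraries numbered 3, those at 0.36 FPKM of HBB, whereas CYP3A5 was low in only 1 of those libraries. CYP3A4 had counts in 3 libraries and at most 0.03 FPKM, and CYP2E1, which oxidizes ethanol, had 0, 0, 8, 8, 12 and 12 counts and at most 0.01 FPKM. CYP2D7, CYP2W1, CYP2C18, CYP2B6 and CYP2A6 had some counts but means under 0.1 FPKM, and CYP1A2, CYP2A7, CYP2A13, CYP2C8, CYP2C19, CYP2F1 and CYP3A43 had none.

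Among the 6 bile acid and oxysterol P450s, CYP39A1 alone was expressed at 1 FPKM or more. CYP39A1, which hydroxylates an oxysterol on a side route to bile acids, had 1.65, 1.92 and 2.78 FPKM in shControl and 1.82, 1.92 and 1.79 FPKM in shPTBP1. Only shControl 3 stood out, and the libraries labelled shPTBP1 lay inside the shControl range. CYP27A1, the mitochondrial sterol hydroxylase, had 0.03 to 0.13 FPKM. CYP7A1, the rate-limiting enzyme of bile acid synthesis, had 4 counts in shPTBP1 1 and 0 elsewhere, CYP8B1 had counts in shControl 3 only, and CYP7B1 and CYP46A1 had 0 in all 6 libraries. CYP7A1 and CYP8B1, the P450s of the classical route to bile acids, were thus at or near 0.

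Among the 14 fatty acid and eicosanoid P450s, CYP2U1 was the expressed member. CYP2U1, which hydroxylates arachidonic acid and other long-chain fatty acids, had 1.29, 1.54 and 1.77 FPKM in shControl and 1.65, 1.55 and 1.53 FPKM in shPTBP1. It had the narrowest range of the 7 members, and its groups overlapped. CYP4F11, a fatty acid omega-hydroxylase, had 0.08, 0.01, 0.15, 0.09, 0.13 and 0.33 FPKM over the 6 libraries. CYP4F3, CYP4F2, CYP4V2, CYP4B1, CYP2J2 and CYP4X1 had means under 0.1 FPKM. CYP4A11, CYP4A22, CYP4F8, CYP4F12, CYP4F22 and CYP4Z1 had a count of 0 in every library. CYP4F3, which inactivates leukotrienes in neutrophils, had 0.06, 0.03, 0.03, 0, 0.03 and 0.04 FPKM and did not follow the split of the neutrophil genes.

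All 7 vitamin D and retinoid P450s had counts. CYP27C1, which converts retinol to dehydroretinol in skin, had 1.46, 1.51 and 1.11 FPKM in shControl and 1.9, 1.86 and 1.44 FPKM in shPTBP1. Its lowest value in each group was in the library numbered 3, and its groups overlapped by that library. CYP26B1, which clears retinoic acid, had 0.84, 0.76 and 1.38 FPKM in shControl and 0.24, 1.31 and 1.61 FPKM in shPTBP1, and its range in shPTBP1 enclosed that in shControl. CYP27B1, which makes the active vitamin D hormone, had 0.69 to 0.89 FPKM, and CYP2R1, which carries out the first step of vitamin D activation, 0.61 to 0.87 FPKM. These 2 were steady over the libraries. CYP24A1, which inactivates vitamin D, had 0, 0.13, 0.24, 0.15, 0.03 and 0.09 FPKM, and the retinoic acid hydroxylases CYP26A1 and CYP26C1 had means under 0.1 FPKM.

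Of the 6 steroid hormone P450s, CYP11A1 was just under the threshold. CYP11A1, which cleaves the side chain of cholesterol in the first step of steroid synthesis, had 0.85, 0.72 and 0.90 FPKM in shControl and 0.90, 1.07 and 1.00 FPKM in shPTBP1. Its mean of 0.907 FPKM lay below that of CYP26B1, the lowest member above the threshold at 1.02 FPKM. CYP17A1 and CYP19A1 (aromatase) had means under 0.1 FPKM, and CYP11B1, CYP11B2 and CYP21A2 had a count of 0 throughout. CYP20A1, a P450 with no settled substrate, had 1.97, 1.64 and 0.92 FPKM in shControl and 1.22, 1.31 and 1.66 FPKM in shPTBP1, the libraries labelled shPTBP1 lying inside the shControl range.

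In order of mean FPKM the expressed members ran CYP2S1 (2.29), CYP1B1 (2.11), CYP39A1 (1.98), CYP2U1 (1.55), CYP27C1 (1.55), CYP20A1 (1.45) and CYP26B1 (1.02), followed by CYP11A1 (0.907), CYP1A1 (0.807), CYP27B1 (0.783) and CYP2R1 (0.775). The ranges over 6 libraries of every pair of neighbors in this order overlapped, so the order within this run is not firm, although CYP39A1 lay above CYP2U1 in 6 of 6 libraries. The next member, CYP3A5, had a mean of 0.170 FPKM, and its range in FPKM lay wholly below that of CYP2R1. In TMM-normalized CPM, which are not divided by length, CYP3A5 had 0.283 to 3.26. That range overlapped CYP27B1 (2.72 to 3.57 CPM) and lay just under CYP2R1 (3.35 to 4.68 CPM). The size of the gap in FPKM thus rests on the length used for each gene. At least 1 FPKM was reached in every library by 5 members (CYP2S1, CYP1B1, CYP39A1, CYP2U1 and CYP27C1) and in at least 1 library by 9, which adds CYP20A1, CYP26B1, CYP11A1 and CYP1A1.

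**Figure D2:**
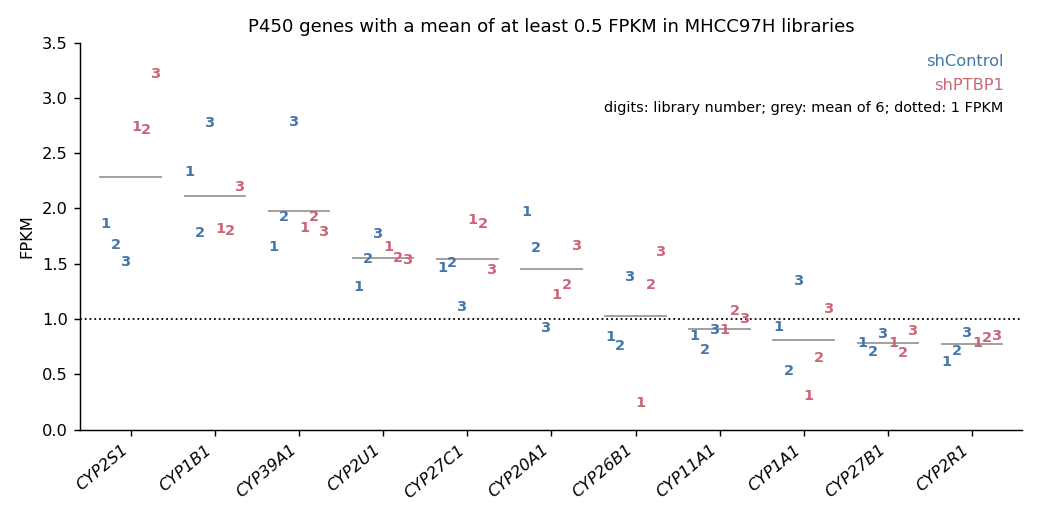
FPKM of the 11 members with a mean of at least 0.5 FPKM, 1 column per gene. Digits are single libraries by number (blue shControl, red shPTBP1), the grey line is the mean of 6 libraries and the dotted line is 1 FPKM. CYP2S1 is the gene whose groups stand furthest apart, and CYP26B1 spans 0.24 to 1.61 FPKM.

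The UGT genes were at or near 0 in every library. All 10 UGT2 genes (UGT2A1, UGT2A2, UGT2A3, UGT2B4, UGT2B7, UGT2B10, UGT2B11, UGT2B15, UGT2B17 and UGT2B28), which conjugate steroids, bile acids and drugs, had a count of 0 in all 6 libraries. Of the 9 UGT1A genes, which share their downstream exons and differ in the first, UGT1A7 had 0.08 FPKM in shControl 3 and 0.07 FPKM in shPTBP1 3, and UGT1A6 had 0.04 FPKM in shPTBP1 1 and 0.02 FPKM in shPTBP1 2. UGT1A1, UGT1A3, UGT1A4, UGT1A5, UGT1A8, UGT1A9 and UGT1A10 had 0. Because 75.99% of the 31-base windows of the UGT1A7 transcript and 59.4% of those of UGT1A6 occur in transcripts of another gene, which of them gave the reads is uncertain. Summed over the 13 UGT1A identifiers of the table, the locus had 0, 0 and 27 counts in shControl and 19, 8 and 24 counts in shPTBP1. That sum was 0 in shControl 1 and shControl 2 and similar in shControl 3 to the libraries labelled shPTBP1 (adjusted p = 0.986 from edgeR). UGT3A1 and UGT3A2, which use other sugars, had counts in 1 library each.

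The comparison of shPTBP1 with shControl asks whether any member changed when PTBP1 was targeted. In edgeR's quasi-likelihood test, 0 of 76 members passed an adjusted p of 0.05, where 0.0309% of 19393 genes tested did (6 genes). Only 20 members, all P450s, passed the filter on low counts, and a member that passed it may have done so through the group in which it is higher. Of these, only CYP2S1 (1 member) had an unadjusted p under 0.05. It was among the genes higher in shPTBP1, where 3.58% of all genes tested had such a p, and no member was among the lower genes, where 2.11% did. In TMM-normalized CPM, every library labelled shPTBP1 lay above every shControl library for 2 of the 20, CYP2S1 and CYP11A1 (6.49% of all genes tested), and below for 0 (5.46% of all genes tested). Log2 fold changes were positive for 10 and negative for 10 members, with a median of -0.04 against -0.01 over all genes tested. As another tool, DESeq2 passed CYP2S1 alone of the members, where 0.726% of 22868 genes passed, and limma on log2(FPKM + 1) passed 0 members and gave CYP2S1 an unadjusted p under 0.05.

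CYP2S1 was higher in the libraries labelled shPTBP1 without passing the adjusted threshold of edgeR. Its TMM-normalized CPM were 6.03, 5.34 and 4.78 in shControl and 8.93, 8.76 and 10.6 in shPTBP1, or 5.38 ± 0.623 against 9.43 ± 1.02 (SD, n = 3 each). The groups did not overlap, and the gap between them was larger than the spread within either. In edgeR the log2 fold change came to 0.81 with a standard error of 0.18, at an unadjusted p of 0.00279 and an adjusted p of 0.455, with an adjusted p of 0.0349 from DESeq2 at a log2 fold change of 0.81. Leaving out single libraries gave log2 fold changes between 0.72 and 0.90, and the libraries numbered 1 and 2 alone gave 0.64 (adjusted p = 0.176 from edgeR). On the log2(FPKM + 1) scale, which understates changes of low genes, limma gave 0.54. CYP2S1 lies on the plus strand of chromosome 19 of hg38 from 41193210 to 41207539 in the deposited table, and 0% of the 31-base windows of its transcript occur in another gene.

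**Figure D3:**
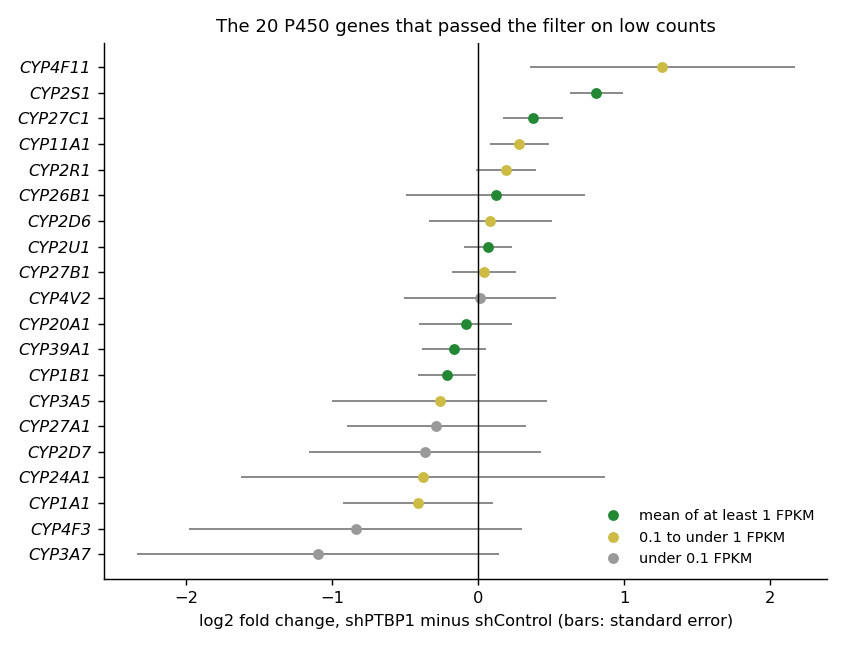
Log2 fold change (points) with its standard error (bars) from edgeR for the 20 members tested, colored by mean FPKM. CYP2S1 lies at 0.81 with a short bar, the other members above 1 FPKM lie between -0.22 and 0.38, and the widest bars belong to members under 0.5 FPKM.

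Of the other members with a mean of at least 0.5 FPKM, only CYP11A1 did not overlap between the groups. CYP27C1 averaged 7.21 ± 1.22 CPM in shControl against 9.35 ± 1.29 CPM in shPTBP1 (mean ± SD over 3 libraries), with 0.38 as its log2 fold change (SE 0.20). CYP11A1 averaged 3.33 ± 0.365 against 4.04 ± 0.350 CPM, a log2 fold change of 0.28 (SE 0.20), and its groups were separated only by 3.59 CPM in shControl 3 and 3.66 CPM in shPTBP1 1. The log2 fold change of CYP1B1 was -0.22 (SE 0.20), that of CYP39A1 -0.17 (0.22), of CYP2U1 0.07 (0.16), of CYP20A1 -0.09 (0.32), of CYP2R1 0.19 (0.21) and of CYP27B1 0.04 (0.22). CYP26B1 had 5.87 ± 1.87 and 6.38 ± 4.35 CPM, and its log2 fold change of 0.12 (SE 0.61) had no stable direction, at 0.58 without shPTBP1 1, 0.41 without shControl 3 and -0.33 without shPTBP1 3. CYP1A1 had 3.70 ± 1.55 and 2.78 ± 1.62 CPM and a log2 fold change of -0.41 (SE 0.51), which ran from -0.94 without shPTBP1 3 and -0.69 without shControl 2 to -0.08 without shControl 3 and -0.06 without shPTBP1 1. Adjusted p-values from edgeR for these 10 members lay between 0.948 and 0.995.

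Members under 0.5 FPKM gave wide errors. The log2 fold change of CYP4F11 was 1.26 (SE 0.91) and that of CYP3A7 -1.10 (SE 1.24), with adjusted p-values of 0.956 and 0.978 from edgeR. Leaving out single libraries moved CYP4F11 from 0.51 (without shPTBP1 3) to 2.05 (without shControl 3) and CYP3A7 from -1.62 (without shPTBP1 1) to -0.52 (without shPTBP1 3). CYP3A5 averaged 2.19 ± 1.65 CPM in shControl against 1.82 ± 0.199 CPM in shPTBP1 (log2 fold change -0.26, SE 0.74). Its difference turned on shControl 3, at 0.283 CPM against 3.26 and 3.02 CPM in shControl 1 and 2. Without shControl 3 the log2 fold change of CYP3A5 was -0.79 (unadjusted p = 0.00967, adjusted p = 0.158 from edgeR), and 16.6% of all genes tested then had an unadjusted p under 0.05. Within the libraries numbered 1 and 2 alone, CYP3A5 had a log2 fold change of -0.77 (adjusted p = 0.221 from edgeR), with 17.7% of all genes tested under an unadjusted p of 0.05. Of the CYP3A7 transcript 87.2% of 31-base windows are shared with another gene, and of CYP3A5 13.6%, so reads may be split between them. Their summed counts, the read-through of CYP3A7 included, were 261, 316 and 25 in shControl and 155, 179 and 129 in shPTBP1, again low in shControl 3. For CYP2D6 (56.5% shared) and CYP2D7 (51.9%) the summed counts were 46, 48 and 81 in shControl and 63, 54 and 50 in shPTBP1.

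**Figure D4:**
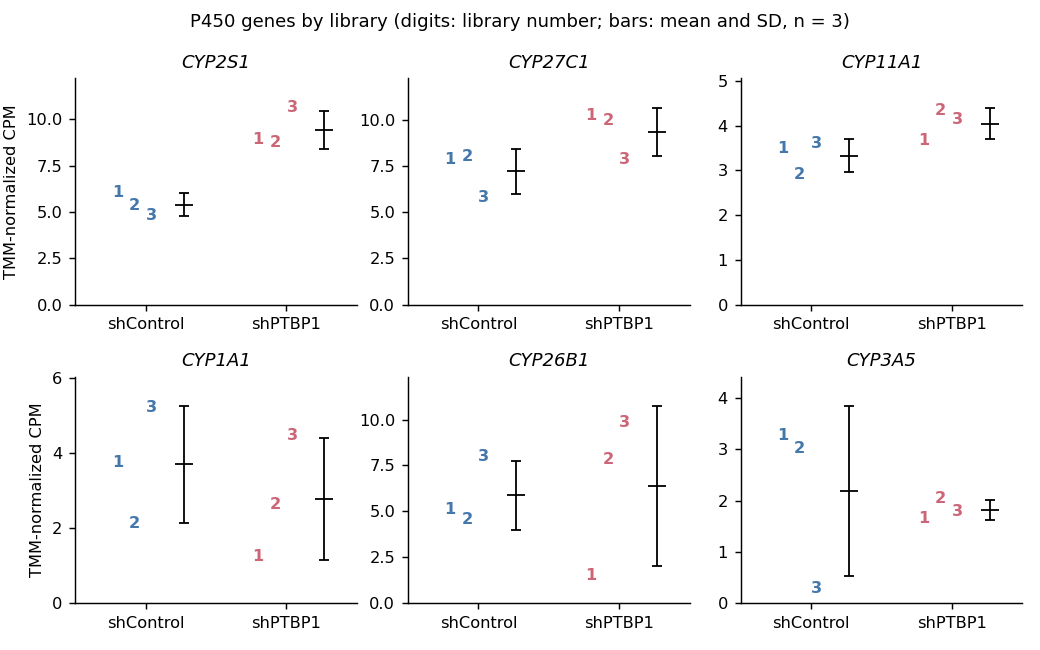
TMM-normalized CPM of 6 members by library, each axis starting at 0, with digits for library numbers and mean and SD beside them (n = 3 per group). The groups stand clear of each other for CYP2S1, shPTBP1 1 is low for CYP1A1 and CYP26B1, and shControl 3 is low for CYP3A5.

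The proteins that serve the P450s were expressed well above most of the enzymes. All 19 genes for redox partners and heme supply found in the table passed the filter. POR, which hands electrons to microsomal P450s, had 8.24 to 14.4 FPKM, and FDX1 and FDXR, which serve the mitochondrial P450s such as CYP11A1 and CYP27B1, had 8.01 to 10.6 and 4.35 to 7.45 FPKM. PGRMC1, a heme-binding membrane protein that interacts with P450s, had 98.9 to 122 FPKM, ALAS1, the first enzyme of heme synthesis, 27.5 to 36.5 FPKM, and PGRMC2 25.3 to 32.0 FPKM. At the adjusted threshold 0 of the 19 were called in edgeR, DESeq2 or limma. Of the 19, 2 had an unadjusted p under 0.05 in edgeR. At that p, 3.58% of all genes tested were higher in shPTBP1 and 2.11% lower. CYB5B, the cytochrome b5 of the outer mitochondrial membrane, had 18.7, 9.73 and 5.60 FPKM in shControl and 22.5, 22.4 and 19.6 FPKM in shPTBP1 (log2 fold change 0.94, SE 0.40, edgeR adjusted p = 0.876). CYB5A, the microsomal cytochrome b5 that assists several P450s, had 3.16, 3.75 and 3.32 FPKM in shControl and 2.73, 2.78 and 2.61 FPKM in shPTBP1 (log2 fold change -0.31, SE 0.12, edgeR adjusted p = 0.853). The groups did not overlap for either, and shControl 1 lay nearest to shPTBP1 for both. In TMM-normalized CPM the groups did not overlap for 6.49% (higher in shPTBP1) and 5.46% (lower) of all genes tested.

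The genes that feed glucuronidation were present where the transferases were not. UGP2, which makes UDP-glucose, had 15.4 to 18.1 FPKM, UGDH, which oxidizes it to UDP-glucuronate, 5.16 to 7.58 FPKM, and GUSB, the lysosomal enzyme that removes glucuronic acid, 7.91 to 12.3 FPKM. Of the 6 genes of this list, 0 passed the adjusted threshold and 0 had an unadjusted p under 0.05 in edgeR, DESeq2 or limma, with log2 fold changes from -0.07 to 0.14. The sugar transferase UGT8, which makes galactosylceramide and lies outside the rule, had 5.48 to 6.83 FPKM. CYP51A1, which demethylates lanosterol in cholesterol synthesis and was also left out, had 24.6 to 46.7 FPKM. UGT8 and CYP51A1 were thus higher than every member in every library. TBXAS1 and PTGIS, also listed outside the rule, were low, at 0.02 to 0.06 FPKM and at a count of 0 in every library.

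**Figure D5:**
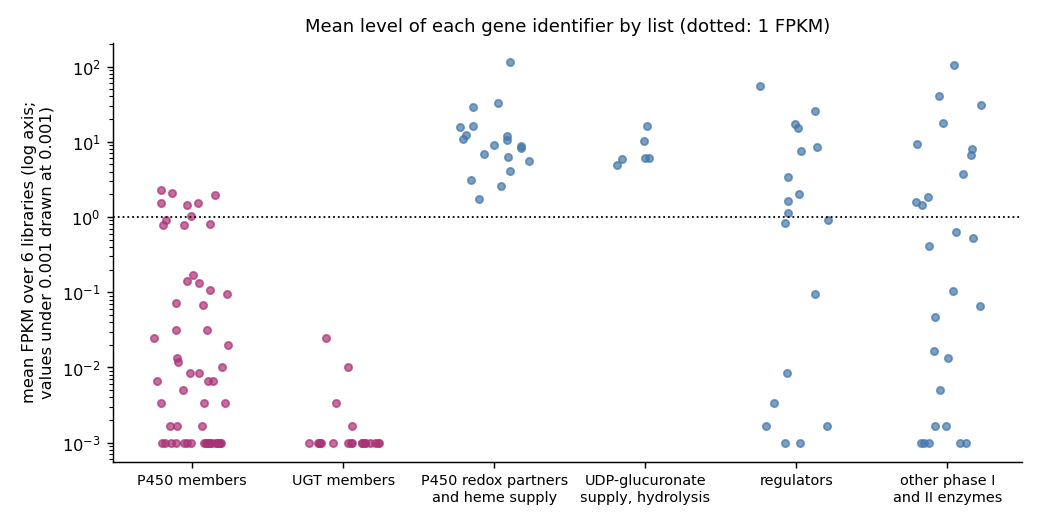
Mean FPKM over 6 libraries (log axis, values under 0.001 drawn at 0.001) of each gene identifier, in 6 columns: the P450 and UGT members (purple) and 4 lists of related genes (blue). All genes for redox partners, heme supply and UDP-glucuronate supply lie above the dotted line at 1 FPKM, while P450s reach 2.29 FPKM and UGTs stay below 0.1 FPKM.

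Of the regulators of these genes, whether they activate or repress, several of the hepatocyte were at or near 0. Others of the liver and the aryl hydrocarbon receptor were expressed. HNF4A, which sets up hepatocyte transcription, had at most 0.02 FPKM, FOXA2 and NR0B2 had a count of 0 throughout, and the drug-sensing receptor NR1I2 (PXR) and the bile acid receptor NR1H4 had at most 0.01 FPKM. NR1I3 (CAR) had 0.05 to 0.19 FPKM. Other factors that act in liver were higher, with 0.85 to 1.37 FPKM for FOXA1, 0.59 to 0.96 FPKM for CEBPA, 0.18 to 1.92 FPKM for PPARA and 1.47 to 1.73 FPKM for RXRA. AHR had 1.68 to 2.30 FPKM, its partner ARNT 6.94 to 11.0 FPKM, CEBPB 14.8 to 19.4 FPKM and the vitamin D receptor VDR 5.88 to 8.66 FPKM. NFE2L2, the regulator of the oxidative stress response, had 7.29 FPKM in shControl 3, 7.55 FPKM in shPTBP1 2 and 30.7 to 41.8 FPKM in the other libraries. AHRR, the repressor of AHR, is listed under a pair of identifiers at 1.62 to 5.24 and at 18.3 to 65.7 FPKM, so its level is uncertain. Of the 13 identifiers tested, 0 passed the adjusted threshold in edgeR, DESeq2 or limma. Over all genes tested, 3.58% were higher in shPTBP1 and 2.11% lower at an unadjusted p under 0.05 in edgeR. Of the 13 identifiers, 1 had such a p. That was TIPARP, an AHR target that limits the receptor, with 13.6, 15.04 and 12.3 FPKM in shControl and 15.9, 15.6 and 18.2 FPKM in shPTBP1 (log2 fold change 0.30, SE 0.13, edgeR adjusted p = 0.873). CYP2S1 and TIPARP were higher in shPTBP1, and neither passed the adjusted threshold of edgeR. The AHR targets CYP1A1 and CYP1B1 had negative log2 fold changes with overlapping groups. AHRR had a log2 fold change of 0.72 (SE 0.37) at its lower identifier and -0.24 (SE 0.43) at its higher one, with overlapping groups. DESeq2 gave AHRR an unadjusted p under 0.05. Whether AHR activity differed between the groups was not tested.

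Other enzymes of drug metabolism were mixed. NQO1, a quinone reductase, had 76.8 to 142 FPKM and EPHX1, the microsomal epoxide hydrolase, 24.9 to 34.9 FPKM, while the liver enzymes CES1, SULT2A1, NAT2 and FMO1 had a count of 0 in every library. Of 27 genes, 18 were tested, and 0 passed the adjusted threshold in edgeR, DESeq2 or limma. Of the 18, 2 had an unadjusted p under 0.05 in edgeR. At that p, 3.58% of all genes tested were higher in shPTBP1 and 2.11% lower. NNMT, which methylates nicotinamide, had 48.0, 41.4 and 59.2 FPKM in shControl and 28.5, 27.7 and 36.2 FPKM in shPTBP1 (log2 fold change -0.65, SE 0.17, edgeR adjusted p = 0.579). CES2, a carboxylesterase, had 6.36, 5.26 and 6.47 FPKM in shControl and 8.26, 6.58 and 7.64 FPKM in shPTBP1 (log2 fold change 0.34, SE 0.14, edgeR adjusted p = 0.871). The groups did not overlap for NNMT, and for CES2 they were separated by 6.47 FPKM in shControl 3 and 6.58 FPKM in shPTBP1 2. In TMM-normalized CPM the groups did not overlap for 6.49% (higher in shPTBP1) and 5.46% (lower) of all genes tested.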

How the data were processed

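RNA-seq of 6 MHCC97H libraries, 3 shControl and 3 shPTBP1, was used as deposited by the authors, in 1 table of FPKM and estimated counts per gene. The authors' processing notes name cutadapt 1.9, FastQC, HISAT2 2.2.1, StringTie and hg38, without settings. The library protocol marks strand, but counting by strand is not stated in the sources used here, so the values of genes that overlap are uncertain.

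The deposited estimated counts, whole numbers as they stand, were scaled by TMM, filtered with filterByExpr and fitted in edgeR 4.0.16 under R 4.3.3, where glmQLFTest compared the groups over 19393 genes, with p-values adjusted by the Benjamini-Hochberg method. The standard error is the absolute log2 fold change divided by the square root of F. The deposited FPKM were used for levels, with 1 FPKM as the threshold, and were tested with limma 3.58.1 on log2(FPKM + 1). DESeq2 1.42.0, no filter, RLE scaling, a pseudocount of 0.1, a replicate block, leaving out each library, the libraries numbered 1 and 2 alone, and number 3 as a covariate were alternatives, and sums over CYP3A5 with CYP3A7 and over CYP2D6 with CYP2D7 were added after seeing the data. The fits were checked on simulated counts, with changes set in genes averaging at least 100 counts. There edgeR called 44 of 100 genes changed 2-fold and 90 of 100 changed 4-fold at the adjusted threshold. DESeq2 called 52 and 96 of them, and limma 25 and 93. A member that was not called may therefore still have changed, by 2-fold or by more. Members averaging under 100 counts were not covered by the simulation, and 56 members were not tested.

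Gene positions are those of the table. GENCODE 29 gave transcripts for all 76 members, 75 of which it calls protein coding (CYP2D7 is the other), and 34 members have the same start and end there. Full values are given for members with at least 1 FPKM on average or in any library. They are also given for members called in any test or at an unadjusted p under 0.05 in the main one. For listed genes other than cell markers, values or ranges are given at such a p or among the 3 highest. Some genes are counted but not reported here by name. Members, lists and rules were chosen with earlier results of these data known. Tables and figures used Python 3.11.15, pandas 2.3.3 and matplotlib 3.10.9.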

Additional observations from a re-analysis of the deposited data

How the results depend on the processing

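Members past the adjusted threshold numbered 0 in edgeR and 1 (CYP2S1) in DESeq2, and 0 with any library left out. Members at an unadjusted p under 0.05 numbered 1 in the main test, 2 in DESeq2, without the filter on low counts, in the libraries numbered 1 and 2 and with number 3 as a covariate, and 1 to 3 with single libraries left out, with 3 only without shControl 3. Of all genes tested, such a p was reached by 16.6% without shControl 3 and by 17.7% in the libraries numbered 1 and 2. In the main test it was reached by 3.58% as higher and 2.11% as lower in shPTBP1. The share was not taken for the other settings. CYP2S1 was in each of the member counts. The others were UGT1A6 (DESeq2 and no filter), CYP3A5 (numbers 1 and 2), CYP27C1 (covariate), CYP19A1 (without shControl 2) and CYP3A5 and CYP2E1 (without shControl 3). UGT1A6, CYP19A1 and CYP2E1 had 0 counts in every shControl library of those fits, their counts coming from shPTBP1 alone, so nothing is drawn from their p-values. Over all genes 6 passed, against 166 in DESeq2, 3 in limma without a filter, 63 in the libraries numbered 1 and 2, 3 with the covariate and 2 to 136 with single libraries left out, the 136 without shControl 3. The numbers were not taken as pairs in the main test. Deviations of same-numbered libraries from their group means correlated at -0.0091, 0.158 and 0.0833. Libraries of different number correlated at -0.139 to 0.0472. HBB, S100A9 and LYZ did split the libraries numbered 1 and 2 from those numbered 3 in both groups. With a replicate block 0 genes passed, and CYP2S1 had a log2 fold change of 0.81. The members at the expression threshold numbered 7, 11 at 0.5 FPKM and 15 at 0.1 FPKM (14.5% and 19.7% of members, against 56.0% and 63.9% of protein-coding genes), and 6 to 7 with single libraries left out.

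Directions turned for members whose groups overlap, and the cause was not tested. With the replicate block CYP26B1 turned to -0.19, CYP3A5 to 0.21 and the sum of CYP3A5 and CYP3A7 to 0.10. With number 3 as a covariate CYP3A5 turned to 0.20 and that sum to 0.10. In the libraries numbered 1 and 2 CYP39A1 turned to 0.070, CYP26B1 to -0.045 and the sum of CYP2D6 and CYP2D7 to 0.28. In limma CYP26B1 turned to -0.015 at a pseudocount of 1, with and without the filter, and to -0.18 at 0.1. With single libraries left out CYP39A1 ran from -0.31 to 0.059, CYP2U1 from -0.034 to 0.17, CYP20A1 from -0.35 to 0.16 (0.0049 without shPTBP1 1), CYP26B1 from -0.33 to 0.58 (-0.037 without shControl 2, -0.055 without shPTBP1 2), CYP3A5 from -0.79 to 0.14 (0.039 without shControl 2), the sum of CYP3A5 and CYP3A7 from -0.89 to 0.0048, and that of CYP2D6 and CYP2D7 from -0.32 to 0.25. CYP2S1, CYP1B1, CYP27C1, CYP11A1, CYP1A1 and CYP3A7 kept their direction in every alternative run. For a member at 0 the depth allows up to 0.0437 CPM in a library, and lower expression could not be seen.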

Other observations

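CYP4V2, a fatty acid hydroxylase, had 14, 19 and 15 counts in shControl and 17, 16 and 16 counts in shPTBP1. In TMM-normalized CPM it ran from 0.205 to 0.222, a narrower spread than that of any other member tested. CYP24A1 had 0 counts in shControl 1 and 53 and 80 counts in shControl 2 and 3, while VDR, which drives it, lay between 5.88 and 8.66 FPKM in the 6 libraries. CYP19A1 had 0, 4 and 0 counts in shControl and 14, 18 and 2 counts in shPTBP1, and CYP2B6 had 0, 0 and 0 against 12, 6 and 0 counts. Other members went the other way, such as CYP26A1 with 12, 0 and 5 against 0, 0 and 4 counts. CYP17A1 had 0, 5 and 11 against 0, 8 and 0 counts. These counts lie near the floor, and nothing is drawn from them.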
